A study of Sus scrofa with 18 samples.

Results

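Among 18 bulk libraries of total RNA from pig kidney cells, 8 were compared here by how much of their RNA came from the mitochondrial genome. The mitochondrial-rich side held the 6 libraries in which over 10% of all counts fell on the mitochondrial chromosome, and the mitochondrial-poor side held the 2 in which under 10% did. The labels give the rich libraries as 2 St8i6a plasmid libraries (written ST8Sia6 plasmid here, numbers 4 and 5) and 4 cell-cell interaction libraries (numbers 1 to 4). They give the poor libraries as 1 cell-cell interaction library (number 5) and 1 wild type library (number 1). The remaining 10 libraries were 5 GFP control, 3 ST8Sia6 plasmid, 1 wild type and 1 negative library of kidney cells with all other cells added.

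All libraries came from purchased primary porcine kidney cells labelled as endothelial and cultured to passage 5. The study transfected them with Lipofectamine LTX, a lipid carrier of plasmid DNA, to carry either GFP or ST8Sia6, a sialyltransferase that adds sialic acid to glycans, and collected RNA 24 hours later. The design text also describes transfected cells cultured with blood mononuclear cells of 4 individuals. The labels name neither the plasmid of the cell-cell interaction libraries nor any co-culture for the ST8Sia6 plasmid and wild type libraries, so plasmid, co-culture and mitochondrial share cannot be told apart among these 8. Libraries are named here as labelled, but the labels may not match the true groups: the authors' deposited table on the interaction comparison is carried by the same 8 libraries, ST8Sia6 plasmid 4 and 5 and wild type 1 among them. The labels do not say that libraries of a group came from separate cultures, and p-values then measure only the spread between these libraries, which may be technical.

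The mitochondrial genome is a small circle that encodes core subunits of the respiratory chain and ATP synthase, with the ribosomal and transfer RNAs needed to translate them. Each strand is transcribed into a long precursor that is cut into single RNAs at the transfer RNAs lying between the messages. One strand yields almost all messages, and the other yields ND6 and several transfer RNAs. All other mitochondrial proteins, including most respiratory chain subunits and the polymerase that transcribes the circle, are encoded in the nucleus.

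In the rich libraries, the mitochondrial share of counts was 17.5% in ST8Sia6 plasmid 4, 16.7% in ST8Sia6 plasmid 5, and 19.6%, 13.8%, 24.3% and 25.4% in cell-cell interaction 1 to 4. In the poor libraries it was 3.32% in cell-cell interaction 5 and 2.29% in wild type 1. The 10 remaining libraries lay between 1.22% and 4.32%, so the rich libraries stood apart from all others and the poor ones lay among them. The libraries next to the threshold were cell-cell interaction 2 at 13.8% and cell-cell interaction 5 at 3.32%. These shares chose the sides, and everything between the sides is therefore given as a description, without a test.

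**Figure D1:**
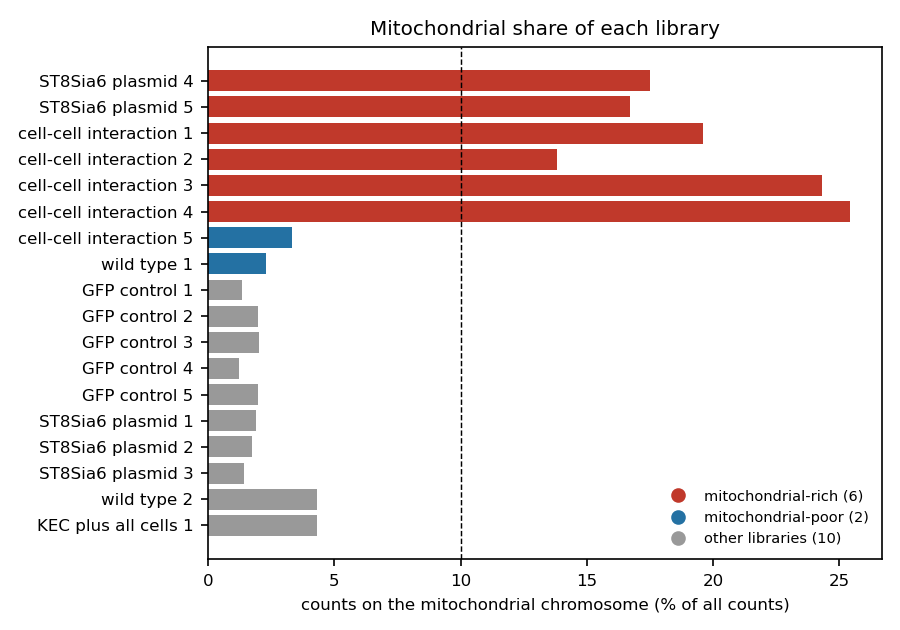
Share of all counts on the mitochondrial chromosome (horizontal axis, %) in each of the 18 libraries, with the dashed line at the 10% threshold. The 6 mitochondrial-rich libraries reach 13.8% to 25.4%, the 2 mitochondrial-poor libraries 2.29% and 3.32%, and the other 10 libraries at most 4.32%.

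Rich libraries held 14867035 to 21429389 counts in all and 12813831 to 17852940 on nuclear genes. The poor libraries held 28667790 and 31141927 counts in all, so depth moved with the split and its part in the results was not tested. Nuclear genes with at least 1 count numbered 15039 to 15106 in rich libraries and 15130 and 15092 in poor ones. Mitochondrial genes were left out before scaling. Every level below is in CPM, counts scaled to the library's nuclear total multiplied by its TMM factor from edgeR. This factor was 1.03 to 1.11 in rich libraries and 0.941 and 0.937 in poor ones. In bulk RNA, fewer cells of a type and less RNA per cell cannot be told apart.

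All 34 mitochondrial genes in the table were higher in every rich library than in either poor one: 13 messages, 2 ribosomal RNAs and 19 transfer RNAs. The median log2 difference, rich minus poor, was 2.84 over the messages, 2.67 over the ribosomal RNAs and 1.58 over the transfer RNAs, against 0.04 over nuclear genes. The nearest libraries of the sides were at least 2-fold apart for 13 of 13 messages and 2 of 2 ribosomal RNAs, but for 8 of 19 transfer RNAs.

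COX1, the catalytic subunit of cytochrome c oxidase, had 125012 and 115619 CPM in ST8Sia6 plasmid 4 and 5 and 150044, 95850, 196003 and 209020 CPM in cell-cell interaction 1 to 4. It had 23927 CPM in cell-cell interaction 5 and 15887 CPM in wild type 1. The lowest rich library was thus well above both poor ones, and above the highest of the 10 other libraries at 26515 CPM. Among the rich libraries, cell-cell interaction 3 and 4 were highest and cell-cell interaction 2 was lowest.

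**Figure D2:**
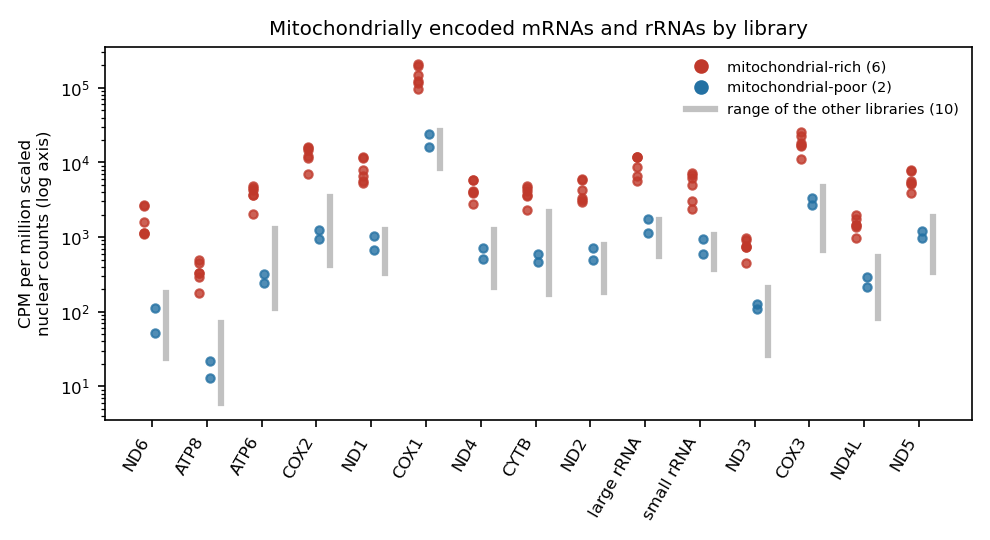
Level of the 13 mitochondrially encoded messages and 2 ribosomal RNAs (vertical axis, CPM of nuclear counts, log axis), ordered by the difference of the sides. Points are single libraries, grey bars the range of the 10 other libraries; every rich library is above both poor libraries for each gene, with log2 differences from 4.36 for ND6 to 2.41 for ND5.

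The difference was not even across the genome. The largest message difference was that of ND6, a subunit of respiratory complex I and the single message of the opposite strand (susScr11 chrM:14739-15266, minus strand), at 4.36. ND6 had 1134, 1102, 1614, 1123, 2680 and 2649 CPM in the rich libraries, in the order used above, and 113 and 52.3 CPM in the poor ones. ATP8 and ATP6, subunits of ATP synthase read from overlapping frames (chrM:8959-9162 and chrM:9120-9800), followed at 4.25 and 3.72. The smallest message difference was 2.41, for the complex I subunit ND5, which had 3889, 5459 and 7953 CPM as lowest, median and highest rich level and 1212 and 967 CPM in the poor libraries.

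As a share of mitochondrial counts, 5 messages were higher in all rich than in both poor libraries: ND1, COX2, ATP8, ATP6 and ND6. ND4L and ND5 were lower, and 6 messages and both ribosomal RNAs overlapped. ND6 made up 0.569% to 0.900% of mitochondrial counts in rich libraries and 0.209% to 0.309% in poor ones. COX1 made up 62.7% to 66.2% in rich and 63.4% to 65.7% in poor libraries. The 9 genes of the minus strand together made up 0.666% to 1.04% in rich and 0.274% to 0.385% in poor libraries. That share was no mark of rich libraries alone, because the 5 GFP control libraries, all with a low mitochondrial share, had 0.618% to 1.09%.

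Whether reads were counted by strand is not given in the sources used here. Reads of ND6 and of the precursor of the opposite strand therefore cannot be told apart, and the overlapping ends of ATP8 with ATP6 and of ND4L with ND4 share sequence. Nuclear copies of mitochondrial genes could also split or share reads.

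Of the nuclear genes, 12958 had a mean of at least 1 CPM over the 8 libraries. A gene was counted when the nearest libraries of the sides were at least 2-fold apart on the log2(CPM + 0.5) scale, which understates the difference of low genes. By that rule 249 genes were higher in rich libraries, 1.92% of those examined, and 230 were lower, 1.77%. When the libraries were scaled to total nuclear counts alone, the split was 389 higher and 132 lower, and the median over all genes moved to 0.23. Without any 2-fold demand the sides did not overlap for 3472 genes that were higher (26.8%) and 2865 that were lower (22.1%).

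The sides were also apart as whole profiles. Across the 12958 genes, every rich library had its highest correlation with another rich library (Pearson r of log2 levels 0.989 to 0.993), and the poor libraries had theirs with each other (0.991). Rich with poor gave 0.922 to 0.957. Genes are not independent replicates, and these values describe the libraries only.

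UBA7 showed the widest gap among genes higher in rich libraries. It encodes the activating enzyme for ISG15, a ubiquitin-like interferon-induced protein (UBA7 lies at susScr11 13:32322032-32341301). UBA7 had 42.0 and 43.4 CPM in ST8Sia6 plasmid 4 and 5, 92.3, 78.5, 53.2 and 34.8 CPM in cell-cell interaction 1 to 4, then 6.21 CPM in cell-cell interaction 5 and 4.07 CPM in wild type 1. None of the 10 other libraries exceeded 14.9 CPM.

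ISG15 itself had 439, 638 and 724 CPM as lowest, median and highest level of the rich libraries, against 88.1 and 101 CPM in the poor ones. Unlike UBA7, ISG15 was as high elsewhere, with 2.99 to 870 CPM over the other libraries. HSPA6, a stress-inducible Hsp70 chaperone, had 13.7, 5.68, 87.5, 24.0, 30.9 and 5.03 CPM in the rich libraries and 0.651 and 0.701 CPM in the poor ones. HSPA6 was thus widely spread among the rich libraries, with cell-cell interaction 1 highest. ARC, an activity-induced gene of the cytoskeleton and synapse in neurons, had 5.37 to 27.9 CPM in rich and 1.23 and 0.807 CPM in poor libraries.

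KIF18B, a kinesin that acts on microtubules in mitosis, had 77.5 to 111 CPM in rich libraries against 21.9 and 20.1 CPM in poor ones. EPS8L2, an actin-regulating adaptor, had 280 to 378 CPM against 74.7 and 73.3 CPM. Both were tight within each side. ACTA1, the skeletal muscle actin, had 7.01 to 13 CPM in rich and 0.920 and 1.19 CPM in poor libraries, and TOX2, a transcription factor of the HMG-box family, had 6.20 to 9.80 against 1.23 and 1.12 CPM. The remaining genes of the 10 with the widest gap were C1orf115, at 7.07 to 25.7 CPM in rich libraries and 1.46 and 0.982 CPM in poor ones, and the microRNA gene ssc-mir-10390, at 55.0 to 123 and 15.3 and 8.14 CPM. Counts over a microRNA gene in total RNA do not measure the mature microRNA.

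MMP7, a matrix metalloproteinase, showed the widest gap among genes lower in rich libraries (susScr11 9:33214594-33225080). MMP7 had 6.82, 16.7, 5.56, 6.27, 9.98 and 16.1 CPM in the rich libraries, against 238 and 264 CPM in the poor ones. Every rich library was also below the 32.0 CPM of the lowest other library, and both poor libraries were above the highest. C3, the central component of complement (2:72431499-72528112), had 221, 287, 222, 144, 187 and 190 CPM in rich libraries and 3086 and 2643 CPM in poor ones. The other libraries had 358 to 3358 CPM of C3, so the rich libraries were below them all while the poor ones were within their range.

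TNFSF18, a ligand of the TNF family that binds the receptor GITR on lymphocytes, had 6.6 to 20.5 CPM in rich libraries and 130 and 143 CPM in poor ones. ITGAV, the integrin alpha V chain that binds fibronectin and vitronectin, had 56.5 to 133 CPM against 828 and 794 CPM. That neither overlapped between the sides follows from how these genes were picked. HVCN1, a voltage-gated proton channel, had 1.52 to 2.72 CPM in rich and 20.2 and 16.9 CPM in poor libraries. CERS6, a ceramide synthase, had 0.166 to 1.05 CPM against 7.89 and 8.21 CPM, and EDNRB, an endothelin receptor, 0.856 to 1.53 CPM against 13.7 and 9.68 CPM. SLC46A2, a solute carrier, had 0.856 to 1.41 CPM in rich and 14.9 and 10.5 CPM in poor libraries, and TMEM255A had 3.03 to 6.76 against 34.7 and 38.1 CPM.

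**Figure D3:**
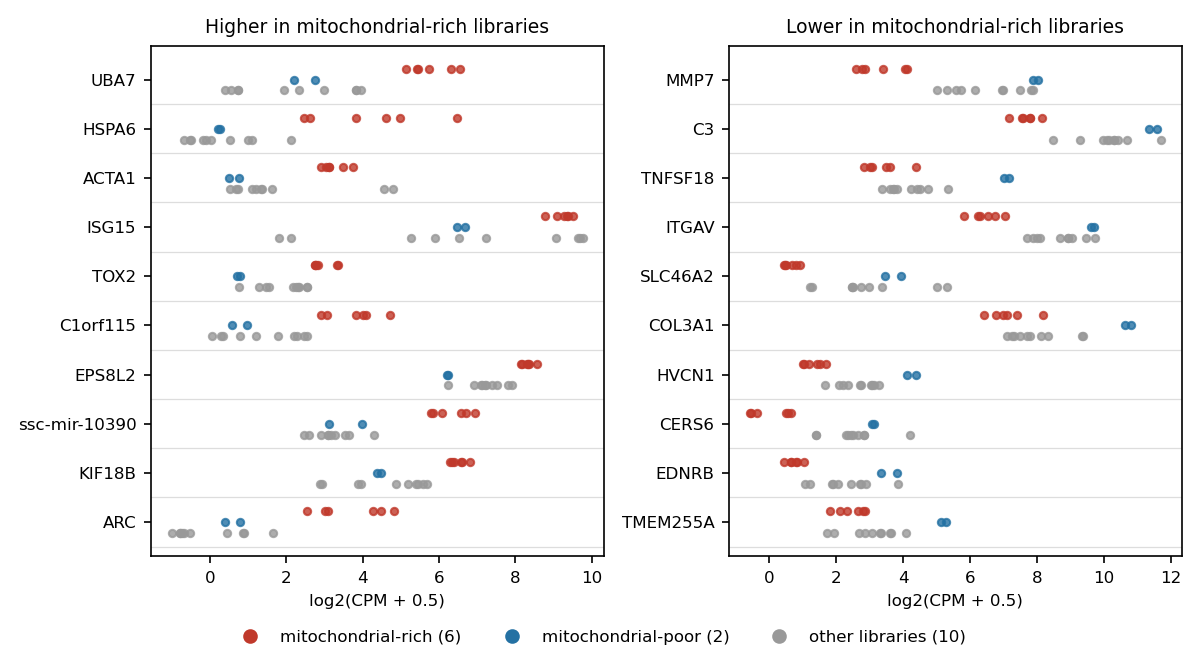
Level of the 10 genes with the widest gap in each direction (horizontal axis, log2(CPM + 0.5)); each point is 1 library, with the 6 mitochondrial-rich libraries above the 2 mitochondrial-poor and the 10 other libraries. The rich libraries lie above the poor ones by at least 2-fold in the left panel and below them in the right panel, and the other libraries reach the range of the rich ones for ISG15 and ACTA1 (left) and for TNFSF18, COL3A1, HVCN1 and TMEM255A (right).

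Interferon-stimulated genes, the antiviral program that type I interferon switches on, were the list with the highest median difference. Of 34 measured members, 12 were higher in rich libraries by the 2-fold rule and none lower, and 31 did not overlap, against 1.92% and 26.8% of all nuclear genes that were higher in these ways. The list median was 1.37 against 0.04 over all nuclear genes. OASL, a member of the 2-5A synthetase family, had 314, 195, 293, 237, 213 and 66.9 CPM in the rich libraries, against 26.7 and 12.4 CPM in the poor ones. Cell-cell interaction 4 was the lowest rich library for OASL and for the list. MX1, an antiviral GTPase, had 1028 to 1607 CPM against 443 and 488 CPM, whereas IFI6, another induced gene, had 318 to 465 CPM against 352 to 449 CPM and overlapped.

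The mean log2 level of the list was 7.05 to 7.96 in rich libraries and 6.26 and 6.06 in poor ones, but 2.83 to 8.21 over the 10 others. The rich libraries were thus not the highest of the series. Of 18 sensors and adaptors of foreign nucleic acid, 4 were higher by the rule, against 1.92% of all genes: ZBP1, CGAS, RIGI and DHX58. CGAS, the enzyme that senses cytosolic DNA, had 19.7, 30.4 and 49.3 CPM as lowest, median and highest rich level and 8.01 and 6.66 CPM in the poor libraries. ZBP1, a sensor of Z-form nucleic acid, had 162 to 298 CPM in rich libraries and 51.5 and 45.9 CPM in poor ones. STING1, the adaptor downstream of CGAS, overlapped, at 7.26 to 10.4 CPM in rich against 8.39 to 8.80 CPM in poor libraries.

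Extracellular matrix and mesenchymal genes had the lowest median of the pathway lists, at -1.30. Of 42 measured members, 20 were lower in rich libraries by the rule, none was higher and 29 did not overlap, against 1.77% and 22.1% of all nuclear genes that were lower in these ways. COL3A1, a fibrillar collagen (15:93556912-93615815), had 85.8, 138, 109, 127, 170 and 291 CPM in the rich libraries, against 1788 and 1608 CPM in the poor ones. COL1A1 had 3136 to 6151 CPM against 18959 and 18458 CPM, and the matrix glycoprotein FN1 had 5416 to 6928 CPM against 32329 and 29373 CPM. POSTN, a secreted matrix protein, had 1.22 to 20.4 CPM against 97.3 and 79.4 CPM.

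Other members of the list overlapped between the sides, 3 of which are given here, picked after their values were seen. ACTA2, the smooth muscle actin, had 74.5 to 388 CPM in rich libraries and 118 to 293 CPM in poor ones, and TAGLN had 1065 to 1576 CPM against 741 to 1434 CPM. VIM, an intermediate filament gene, had 2879 to 4111 CPM against 3594 to 4963 CPM.

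**Figure D4:**
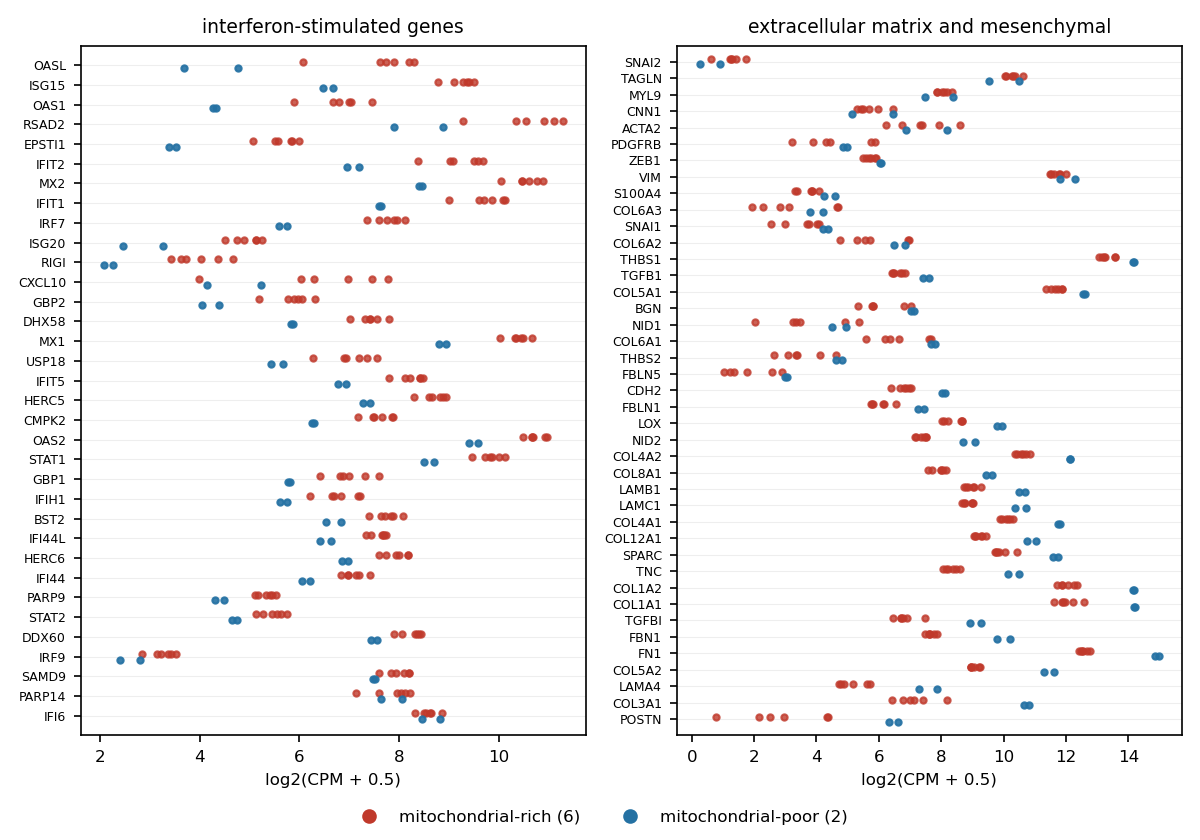
Levels of 34 interferon-stimulated genes (left) and 41 of the 42 measured extracellular matrix or mesenchymal genes (right) on the log2(CPM + 0.5) axis, ordered by the difference of the sides; each point is 1 mitochondrial-rich (6) or mitochondrial-poor (2) library. The rich libraries are to the right for 31 interferon-stimulated genes without overlap and to the left for 28 of the matrix genes shown.

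Genes of coagulation and its control had a median of -1.13, with 3 of 14 lower by the rule and 8 lower without overlap, against 1.77% and 22.1% of all genes. TFPI2, a protease inhibitor, had 16.9 to 27.1 CPM in rich and 88.1 and 65.4 CPM in poor libraries. PROS1, the anticoagulant protein S, had 18 to 34.8 CPM against 71.1 and 72.7 CPM. In complement, 2 of 7 measured genes were lower by the rule, C3 and CLU. CLU, an extracellular chaperone also called clusterin, had 895 to 1954 CPM in rich libraries and 4244 and 4707 CPM in poor ones.

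Cell cycle genes were higher in rich libraries as a group, by less than matrix genes were lower. The median was 0.95, all 29 measured members had a positive difference, 24 did not overlap and 2 passed the 2-fold rule, against 26.8% and 1.92% of all genes. Those past the rule were CDT1, which licenses replication origins, with 25.3 to 36.7 CPM against 9.50 and 10.6 CPM, and the mitotic kinase PLK1, with 141 to 157 CPM against 61.1 and 70.5 CPM. CCNB1, the mitotic cyclin B1, had 114 to 168 CPM against 51.3 and 60.3 CPM.

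Cholesterol synthesis genes had a median of 0.66, with 14 of 26 not overlapping, all higher in rich libraries, against 26.8% of all genes. Past the rule was 1 gene, near the 1.92% of all genes: LSS, lanosterol synthase, with 171 to 274 CPM in rich and 67.1 and 73.5 CPM in poor libraries. IDI1, an isomerase of the isoprenoid steps, had 35.6 to 64.6 CPM against 13.3 and 20.2 CPM. The list mean of the poor libraries, 5.31 and 5.44, lay below that of the 10 other libraries, whose lowest value was 6.03, and the rich libraries had 5.61 to 6.21.

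Lysosomal and autophagy genes had a median of -0.81, with 2 of 29 lower by the rule, CTSD and HEXA, and 21 lower without overlap, against 1.77% and 22.1% of all genes. CTSD, the protease cathepsin D, had 140, 141, 146, 143, 143 and 149 CPM in the rich libraries and 450 and 313 CPM in the poor ones. PSAP, the precursor of the saposins, had 619 to 902 CPM against 2641 and 1731 CPM. The 10 other libraries had 244 to 510 CPM of CTSD, so it was the rich libraries that stood apart.

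Genes of the unfolded protein response, which adjusts protein folding in the endoplasmic reticulum, had a median of -0.64, and 13 of 18 were lower without overlap, against 22.1% of all genes. SEL1L, of the machinery that removes misfolded proteins, had 104 to 153 CPM in rich libraries and 388 and 352 CPM in poor ones, and the chaperone HSPA5 had 533 to 830 CPM against 1358 and 1174 CPM. PPP1R15A, which reverses the translational block of the integrated stress response, went the other way, with 107 to 256 CPM against 69.7 and 67.0 CPM. The listed heat shock genes had a median of 0.35, with 7 of 17 higher without overlap, against 26.8% of all genes. None of them was past the rule, near the 1.92% of all genes. HSPA6, the Hsp70 chaperone given above, passed the rule but is not on this list. HSF1, the heat shock transcription factor, had 93.0 to 139 CPM against 54.9 and 56.1 CPM.

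Cytokines, chemokines and other targets of NF-kB had a median of -0.42, with 3 of 27 lower by the rule, against 1.77% of all genes. VCAM1 and ICAM1, adhesion molecules that bind leukocyte integrins, had 112 to 259 CPM and 105 to 181 CPM in rich libraries, against 1297 and 799 CPM and 681 and 471 CPM in poor ones. The cytokine IL6 overlapped, with 19.0 to 199 CPM against 49.9 and 24.2 CPM, as did the chemokine CXCL8. Immediate early genes had a median of 0.47 and 15 of 25 were higher and 2 lower without overlap, against 26.8% and 22.1% of all genes. FOSL1, an AP-1 subunit, had 56.7 to 101 CPM against 27.7 and 24.5 CPM.

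**Figure D5:**
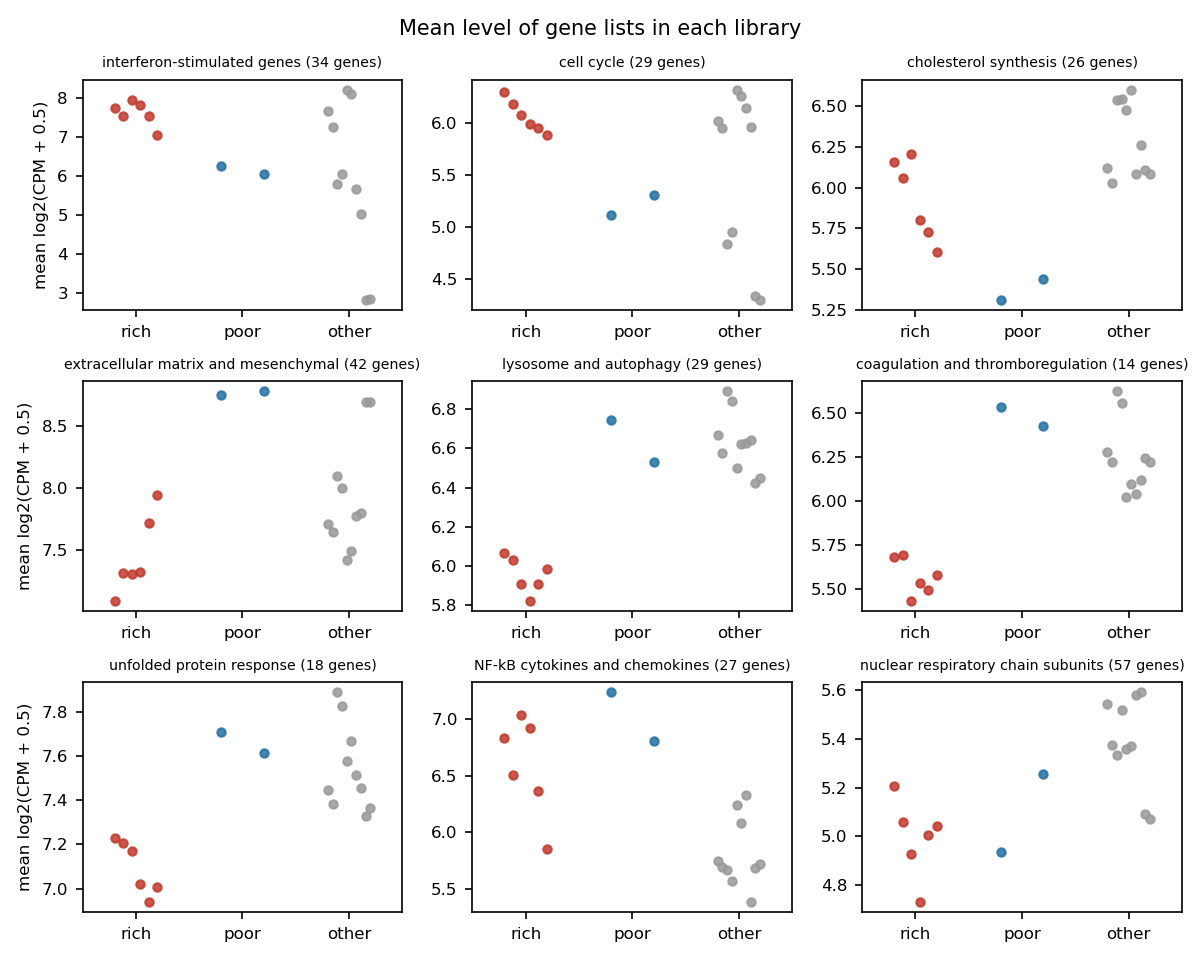
Mean log2(CPM + 0.5) over the measured genes of 9 lists (vertical axis) in each library, for the 6 mitochondrial-rich, 2 mitochondrial-poor and 10 other libraries. Rich libraries are above poor ones for the interferon, cell cycle and cholesterol lists, below them for the matrix, lysosome, coagulation and unfolded protein lists, and overlap for the NF-kB and nuclear respiratory chain lists.

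Nuclear genes of the mitochondrion had medians near that of all nuclear genes. None of 57 nuclear-encoded respiratory chain subunits, 64 mitochondrial ribosomal proteins, 43 genes of mitochondrial genome expression and 21 genes of mitochondrial dynamics passed the 2-fold rule, which is near the 1.92% and 1.77% of all genes that did. Without overlap, 2 subunits were higher and 7 lower, 15 mitochondrial ribosomal proteins were higher and 1 lower, and 5 dynamics genes were higher and 1 lower. Of all nuclear genes, 26.8% were higher and 22.1% lower in this way. The 15 ribosomal proteins and 5 dynamics genes are thus near the share of all genes, and the other counts are below it. The medians were -0.09, 0.16, 0.08 and -0.07, against 0.04 for all nuclear genes. With total nuclear counts as the scale, the subunits gave 0.10 and the dynamics genes 0.12, and without wild type 1 they gave 0.09 and 0.12, so neither list has a firm direction. Without cell-cell interaction 5 the mitochondrial ribosomal proteins gave -0.003.

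COX4I1, a nuclear subunit of the same complex as COX1, had 31.2, 34.8, 26.4, 21.2, 25.2 and 29.0 CPM in the rich libraries and 34.7 and 42.5 CPM in the poor ones. COX4I1 thus overlapped between the sides. That COX1 did not overlap follows from the split, because COX1 makes up most of the mitochondrial counts that set the sides. Of the 43 genes of mitochondrial genome expression, 12 were higher without overlap and 5 lower, against 26.8% and 22.1% of all genes, so the higher share is near that of all genes. Among the higher ones, POLRMT, the mitochondrial RNA polymerase, had 115 to 172 CPM against 98.6 and 86.2 CPM, ELAC2, which cuts the ends of transfer RNAs, had 101 to 153 CPM against 69.9 and 65.9 CPM, and PPARGC1B, a coactivator of mitochondrial gene programs, had 15 to 26.3 CPM against 7.78 and 6.63 CPM. These 3 were picked from the list after their values were seen. The 5 lower genes were MTERF1, FASTKD2, MTPAP, TUFM and GFM2. TUFM, the mitochondrial translation elongation factor Tu, had 85.2 to 109 CPM in rich libraries and 111 and 124 CPM in poor ones.

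Other lists showed smaller shifts. The medians were 0.16 for MHC class I processing, 0.11 for cytosolic ribosomal proteins, 0.06 for MHC class II, -0.04 for mitochondrial and integrated stress, -0.04 for p53 and apoptosis, -0.05 for oxidative stress and -0.10 for hypoxia and glycolysis. Each of these 7 medians changed sign under at least 1 alternative: the last 4 turned positive with total nuclear counts as the scale, and MHC class II turned negative with mitochondrial genes kept in the scaling. Cytosolic ribosomal proteins gave -0.13 without cell-cell interaction 5, and MHC class I processing gave -0.12 without wild type 1. NLRC5, an activator of MHC class I genes, was the 1 MHC class I gene past the rule, with 88.6 to 281 CPM in rich and 33.6 and 18.8 CPM in poor libraries. PDIA3, a disulfide isomerase of peptide loading, had 522 to 808 CPM against 1613 and 1372 CPM.

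The cell-type label was set against marker genes on a per-length scale, in CPM per kilobase. PECAM1, an endothelial junction protein, had 0.383 to 0.693 in rich and 0.283 to 0.333 in poor libraries. FLT1, a receptor of vascular endothelial growth factor, was the highest endothelial marker and went the other way, with 10.4 to 12.7 in rich and 17.2 to 24.7 in poor libraries. EGFL7 had 0.565 to 1.05 and 1.55 to 1.80, while ENG, at 0.448 to 1.49 and 0.963 to 1.17, and ESAM, at 1.28 to 3.22 and 1.40, overlapped. The epithelial keratin gene KRT8 had 169 to 318 and 140 to 264, and COL1A1, typical of fibroblasts, had 545 to 1069 and 3207 to 3294. Of 18 endothelial markers, 11 were in the table and 5 reached the 1 CPM mean; CDH5, VWF and KDR were not analysed here. The 11 together summed to 84.2 to 107 CPM in rich and 135 to 186 CPM in poor libraries. KRT8 and COL1A1 were above each of the 5 endothelial markers on both sides. So were the kidney epithelial markers KRT18, at 66.6 to 162 and 39.5 to 83.4, and PAX2, at 51.6 to 67.5 and 39.8 to 41.7. CDH1, another marker of that list, was not. At 5.78 to 12.2 it overlapped FLT1 in rich libraries, and at 12.7 to 13.2 it was below FLT1 in poor ones. Of 26 kidney epithelial markers, 19 were in the table and 13 reached the 1 CPM mean, and those not named here were not put on this scale. EPCAM, an epithelial adhesion gene, was below that mean, at 0.331 to 1.5 CPM in rich and 0.596 to 0.613 CPM in poor libraries. The markers given thus do not stand for the whole list.

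Some leukocyte transcripts also moved with the split. PTPRC, the pan-leukocyte antigen CD45, had 0 counts in all 6 rich libraries, which allows up to 0.153 to 0.212 CPM by a floor of 3 counts per library. It had 59 counts (2.26 CPM) in cell-cell interaction 5 and 17 counts (0.596 CPM) in wild type 1, so the lower of these was at least 2.82-fold higher than the highest floor. The floor covers counting error only. The highest PTPRC levels of the series were outside both sides, 4.46 and 8.82 CPM in GFP control 1 and 2. CD14, a monocyte receptor, had 3.81 to 5.99 CPM against 22.4 and 13.8 CPM. The summed level of the 8 monocyte markers in the table was 10.4 to 18.8 CPM in rich and 35.7 to 48.2 CPM in poor libraries, and that of 11 pan-leukocyte markers 34.0 to 47.2 against 51.0 to 58.2 CPM. The 10 other libraries reached 80.5 CPM for the monocyte and 123 CPM for the pan-leukocyte markers, above the poor side. B cell markers, 3 in the table, overlapped at 11.8 to 18.5 CPM in rich and 10.5 to 15.02 CPM in poor libraries. The 2 NK and cytotoxic markers in the table were near 0 on both sides, at 0 to 0.277 and 0.0351 to 0.153 CPM. Only 2 of 12 T cell markers were in the table, at 10.1 to 14.6 and 10.2 to 12.9 CPM, and the part of leukocyte RNA in the differences above was not tested.

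The fibroblast and pericyte markers summed to 7438 to 11976 CPM in rich and 38912 to 39269 CPM in poor libraries, moving with the matrix list, which shares its collagens. The kidney epithelial markers summed to 1591 to 2730 and 1336 to 2072 CPM and overlapped. EPCAM had 0.331 to 1.5 CPM against 0.613 and 0.596 CPM, and 0.254 to 21.8 CPM in the 10 other libraries. The plasmid gene ST8SIA6 had 0, 61, 0, 439, 0 and 24 counts in the rich libraries, in the order used above, and 2 and 1 counts in the poor ones. It was thus at 0 in 1 of 2 rich libraries labelled with the ST8Sia6 plasmid and reached 31.0 CPM in cell-cell interaction 2, whose plasmid the labels do not name. In the other libraries labelled with that plasmid, numbers 1 to 3, it had 2.38, 0 and 0.107 CPM, and it had 1.06 CPM in GFP control 2, so ST8SIA6 does not follow the plasmid labels. Counts over the pig gene may miss a plasmid whose sequence differs.

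The genes past the 2-fold rule were also set beside the 10 other libraries. These counts were not made over all nuclear genes, so they only describe genes already picked for their gap. Of the 249 higher genes, all 6 rich libraries were above every other library for 159. Both poor libraries were within the range of the others for 218 and below every other library for 10. Of the 230 lower genes, all 6 rich libraries were below every other library for 137, and both poor libraries were above every other library for 73. COL3A1 and MMP7 were among the genes for which the poor libraries were highest in the series, and ITGAV was not, with 210 to 848 CPM elsewhere.

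Genes without a symbol were 46.2% of those higher (115 of 249) and 10.4% of those lower (24 of 230), against 17.3% of the 12958. Short genes leaned towards the rich side: the median difference was 0.14 for genes under 1000 bases and -0.03 for those of 8000 bases and more. Median lengths were 4149 bases for higher and 5201 for lower genes, against 4404.5 for all. The part of gene length in the differences was not tested.

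The labels allow 1 test that does not use the mitochondrial share, the 5 cell-cell interaction against the 5 GFP control libraries. Of its 5 cell-cell interaction libraries, whose plasmid the labels do not name, 4 are mitochondrial-rich, and no GFP control library is. Interaction, plasmid and mitochondrial share thus cannot be told apart in this test. The groups and all p-values are for the libraries as labelled, which may not be the true groups, since the authors' deposited table also rests on ST8Sia6 plasmid 4 and 5 and wild type 1. With edgeR's quasi-likelihood test and Benjamini-Hochberg adjustment over 14014 nuclear genes at 0.05, 3030 rose (21.6%) and 2475 fell (17.7%). Without cell-cell interaction 5, the mitochondrial-poor library, 7108 genes passed in place of 5505, of which 5355 were shared.

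Nuclear respiratory chain subunits were the list with the most falling genes, 42 of 57, with none rising. COX4I1 fell by 0.76 on the log2 scale (adjusted p = 0.003). Of 27 NF-kB genes, 14 rose and none fell, with CXCL8 higher by 3.65 (adjusted p = 0.002). Of 34 interferon-stimulated genes, 2 rose and 1 fell, and of 42 matrix genes 9 rose and 4 fell. These counts are to be read against the 21.6% and 17.7% of all tested genes that rose and fell.

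UBA7 averaged 53 ± 34.3 CPM in cell-cell interaction and 8.55 ± 4.91 CPM in GFP control libraries (SD, n = 5 each), a log2 fold change of 2.67 ± 0.62 (SE; edgeR, adjusted p = 0.0071). NLRC5 averaged 159 ± 102 and 26.1 ± 22.9 CPM, a change of 2.66 ± 0.62 (adjusted p = 0.0074). PPP1R15A averaged 165 ± 74.7 and 54.3 ± 14.5 CPM, a change of 1.65 ± 0.31 (adjusted p = 0.0028). These genes rose in the interaction libraries, and within them the mitochondrial-poor library was the lowest for each. That order is no separate result, because these genes were named for their difference between the sides. The genes of the next paragraph, its cell-type markers apart, were named in the same way. The interaction libraries were among the 8 that picked them, so for these genes the test is not independent of the split.

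ARC rose by 4.02 ± 0.96 (adjusted p = 0.0082) and ssc-mir-10390 by 3.29 ± 0.46 (adjusted p = 0.00068). HSPA6, ACTA1 and C1orf115 also rose, but missed the threshold with limma-voom, at adjusted p = 0.117, 0.120 and 0.0713. KIF18B, CGAS and HSF1 passed narrowly, at adjusted p = 0.0394, 0.0438 and 0.0419 by edgeR, and missed it without cell-cell interaction 1, at 0.0964, 0.107 and 0.130. PROS1 fell by 1.91 and CLU by 2.14 on the log2 scale (edgeR, adjusted p = 0.0076 and 0.0084). Of the cell-type markers, EPCAM fell by 4.04 ± 0.55 and PECAM1 rose by 0.94 ± 0.26 (edgeR, adjusted p = 0.00063 and 0.015). PECAM1 narrowly missed the threshold without cell-cell interaction 1, at 0.0508, and CD14 and COL1A1 did not pass. ISG15, MMP7, C3, ITGAV, COL3A1, VCAM1 and ICAM1 did not pass.

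The split also bears on a comparison the authors deposited. The authors' deposited table on cell-cell interaction, GFP against ST8Sia6, was fitted by least squares from the 18 libraries' log2 levels, with an R2 of 0.894. In that fit the authors' deposited table weighed cell-cell interaction 1 and 2 and ST8Sia6 plasmid 4 and 5 with 0.232 to 0.330, and cell-cell interaction 3, 4 and 5 and wild type 1 with -0.175 to -0.390. No other library exceeded 0.108 in size, so these 8 libraries carry it, with 4 rich ones on 1 side and 2 rich and 2 poor ones on the other.

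In the authors' deposited table, 115 of the 230 genes lower in rich libraries had an FDR under 0.05, against 723 of all 15240 genes and 2 of the 249 genes higher in rich libraries. COL3A1 stood at -3.12 there (the authors' deposited table, FDR 3.5e-05) and MMP7 at -3.95 (FDR 0.00086). These counts and FDRs are no separate support for the split. The genes were picked from the same libraries that carry that table, and both poor libraries have negative weights in it. Genes picked for being high in the poor libraries therefore lean negative there by selection. The authors' deposited table gave the 13 mitochondrial messages a median log2 fold change of 0.23, and none passed. In that comparison, plasmid and mitochondrial share cannot be told apart for genes that differ in both.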

How the data were processed

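Total RNA was sequenced in 18 libraries. Per the submitters' processing notes, the tools were STAR 2.7.10a, FastQC 0.11.5, edgeR 3.40.2 and featureCounts (Subread 2.0.3), on build susScr11. How strand and multiply matching reads were handled is not given in the sources used here. The 2 tables deposited by the authors hold raw whole-number counts per gene, log2 CPM and log2 fold changes, a signed fold-change score, a p-value and FDR for each comparison, and gene lengths in bases, per the file headers. They list 15240 genes (34 mitochondrial), of which 11927 had a symbol in the files and 65 more from a table of gene names. The smallest total count of a gene was 23, so rarer genes were not analysed here.

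From the counts, library sides were set by the mitochondrial share, mitochondrial genes were left out, and nuclear counts were scaled by TMM over all 18 libraries (edgeR 4.0.16, limma 3.58.1, R 4.3.3). Levels are CPM, and log2(CPM + 0.5) was used for differences. All 34 mitochondrial genes matched RefSeq coordinates by position, which gave their names. Genes were counted at a mean of at least 1 CPM and at least 2-fold between the nearest libraries of the sides. The comparison by labels used filterByExpr, TMM and edgeR's robust quasi-likelihood test with Benjamini-Hochberg adjustment, two-sided, at 0.05. Both steps were tested on simulated data. Counts and medians of lists cover all measured members, of which 2 are not reported here singly.

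Groups follow the sample labels, with replicates numbered in the order of the samples, so numbers pair nothing. Named genes were the mitochondrial genes, the plasmid gene, the 10 widest gaps per direction at 5 CPM or more, 2 members per list to 30 genes by list median, and markers; other list members were named after their values were seen. The members, the 23 pathway and 9 marker lists and the rules were chosen with earlier results of these data known. Alternatives tried were RLE and total-count scaling, mitochondrial genes kept in, other filters, folds and pseudocounts, DESeq2 1.42.0, limma-voom, all 18 libraries in 1 fit, cell-cell interaction libraries alone, and each library left out.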

Additional observations from a re-analysis of the deposited data

Results flagged for a closer look

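Of 129 sets of 5 or 6 libraries examined, 7 held a library far from the rest of its set by Dixon's test, which chance alone does in about 1 in 20 sets. In 4 of these, on mean log2(CPM + 0.5) of a gene list over the 5 cell-cell interaction libraries, the library apart was number 5, the mitochondrial-poor one. It had 6.53 for coagulation and thromboregulation genes, where the others had 5.43 to 5.58, and 6.74 for lysosome and autophagy genes, where the others had 5.82 to 5.99. It had 5.11 for cell cycle genes, where the others had 5.89 to 6.08, and 3.66 for pan-leukocyte markers, where the others had 3.08 to 3.20.

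The other 3 were single genes within the 6 mitochondrial-rich libraries, on log2(CPM + 0.5). OASL was 6.08 in cell-cell interaction 4, where the others had 7.61 to 8.30. ATP6 was 11.01 in cell-cell interaction 2, where the others had 11.84 to 12.24, and ND3, a subunit of complex I, was 8.82 there, where the others had 9.51 to 9.90. Cell-cell interaction 2 also had the lowest mitochondrial share of the rich libraries, 13.8%.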

How the results depend on the processing

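The 249 higher and 230 lower nuclear genes became 389 and 132 with total nuclear counts as the scale, which moved the median of all nuclear genes to 0.23. They became 3472 and 2865 without a 2-fold demand, 6 and 18 at 4-fold, and 521 and 493 within the cell-cell interaction libraries alone, where the poor side is 1 library. Leaving out 1 library gave 250 to 487 higher and 233 to 370 lower genes; the highest values came without cell-cell interaction 5 and without wild type 1, which leave 1 poor library. Of the original genes, 249 of 249 and 227 of 230 were among these. With RLE scaling the counts were 215 and 255, with mitochondrial genes kept 195 and 263, with a pseudocount of 0.1 342 and 249 and with 1 180 and 221. Restricting to genes of at least 2000 bases, a choice made after seeing the data, gave 206 and 216. The median of the mitochondrial messages stayed between 2.60 and 3.08 over the libraries left out.

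Against GFP control, the 5505 passing genes became 2377 when a log2 fold change of 1 or more in size was also required, 6346 with DESeq2, 5471 with limma-voom, and 3922 to 7108 with 1 library left out. Among named genes, 235 of the checks of that test kept the call and 35 lost it. Direction between the sides was checked only for the named genes past the 2-fold rule. None of them reversed, but their gap left little room for that, so it is no separate support. The median of 10 pathway lists, at -0.10 to 0.16, changed direction under at least 1 of these settings, as did that of the endothelial and the kidney epithelial markers. No paired analysis was possible because the labels carry no replicate numbers. With 2 poor libraries, the spread on that side is not known, and at the depth of the rich libraries levels under 0.153 to 0.212 CPM are not detectable.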
